A study of Mus musculus with 185 samples.

Results

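The genes for the receptors of the colony-stimulating factors and of related survival cytokines were examined in single Langerhans cells (LCs) of the mouse epidermis. The 8 genes were chosen by name and not by their values, among 45661 genes in the count table. They were Csf1r, Csf2ra, Csf2rb, Csf2rb2, Csf3r, Flt3, Kit and the ligand gene Csf1. Of these, 6 had at least 1 read in the cells kept and 2 had none.

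The cells came from bone marrow chimeras. The hosts were lethally irradiated B6 mice that expressed CD45.1 and carried Cd207DTR, an allele that puts the diphtheria toxin (DT) receptor under control of the langerin gene. They were given wild-type bone marrow from CD45.2 donors, received DT at the low dose of 5 ng per g body weight 2 months after the transplant, and were analysed 2 months after DT. Host LCs, called eLCs, therefore carried the Cd207DTR allele and had outlived both irradiation and DT, whereas donor LCs, called moLCs, were wild type at Cd207 and had arisen from bone marrow, so that allele, toxin history and origin cannot be told apart. All cells passed the same gate (lineage-negative, CD11c+, CD11b+, CD24+, MHCII+ and CD326+) and were sorted by CD45.1 or CD45.2 onto 2 plates.

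The table held 67 moLCs sorted onto plate 1 and 39 onto plate 2, and 29 eLCs sorted onto plate 1 and 50 onto plate 2. A limit of 5% mitochondrial reads removed 3 moLCs of plate 2 and kept 182 cells, with 36 moLCs of plate 2 and the other groups whole. Shares of cells below refer to all moLCs or all eLCs kept. Total counts of the cells kept ranged from 432614 to 4525429, with a median of 2904473. The labels name no animal, so each origin counts as 1 sample, no difference between origins has a replicate check and no p-value is given. The 7 LC marker genes summed to between 122148 and 155175 CPM, the reads of a gene per 1000000 reads, in the 4 groups formed by origin and plate, and all 7 were read.

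CSF1R is a receptor tyrosine kinase of macrophages that binds CSF1 and interleukin-34, and in the epidermis it is known as the receptor through which keratinocyte-derived interleukin-34 maintains LCs. The receptor for GM-CSF joins a specific alpha chain, encoded by Csf2ra, to the common beta chain, encoded by Csf2rb, which also serves the interleukin-3 and interleukin-5 receptors. Mice have an extra beta chain gene, Csf2rb2, whose product pairs with the interleukin-3 receptor alpha chain. FLT3 and KIT are receptor tyrosine kinases of blood progenitors, the former also of dendritic cells and the latter of mast cells and melanocytes, and CSF3R is the G-CSF receptor of neutrophils.

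Csf2rb (ENSMUSG00000071713) lies on the forward strand at chr15:78325752-78353847 and Csf2rb2 (ENSMUSG00000071714) on the reverse strand at chr15:78282507-78305721 (GRCm38, the assembly also called mm10, with GENCODE M21 gene models). The genes lie head to head, with 20030 bases between their 5′ ends. The longest coding sequences, of 2688 and 2634 bases, were 95.2% identical over 2628 aligned bases. The stretch where the aligned coding sequences differed most within 90 bases, in exon 5 of Csf2rb (chr15:78338897-78338986) and exon 4 of Csf2rb2 (chr15:78294345-78294434), is shown because it tells reads of the paralogs apart. Capitals mark the 16 differing bases, and both are written 5′ to 3′ on the coding strand.
Csf2rb: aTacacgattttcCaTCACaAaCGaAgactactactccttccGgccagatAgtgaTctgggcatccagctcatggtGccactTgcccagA
Csf2rb2: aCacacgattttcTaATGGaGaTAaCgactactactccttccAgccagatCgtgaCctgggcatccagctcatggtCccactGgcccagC

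In contrast, the longest run shared without a difference was 242 bases long, in the last exon of each gene (chr15:78348577-78348818 in Csf2rb and chr15:78284630-78284871 in Csf2rb2). It is shown because a 75-base read that falls inside it fits both genes equally well.
Csf2rb and Csf2rb2: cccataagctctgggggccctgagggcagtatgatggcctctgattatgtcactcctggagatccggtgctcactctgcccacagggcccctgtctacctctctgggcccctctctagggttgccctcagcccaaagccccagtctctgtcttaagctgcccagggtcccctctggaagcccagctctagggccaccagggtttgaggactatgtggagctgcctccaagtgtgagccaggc

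Over the transcripts with these coding sequences, 10.7% of the 4826 windows of 75 bases in Csf2rb also occurred in a Csf2rb2 transcript, and 11.1% of the 4666 windows of Csf2rb2 occurred in a Csf2rb transcript. How the counting treated reads that match both genes is not given in the sources used here, so the split of reads between the paralogs is uncertain.

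To compare receptor genes with each other, CPM was divided by the length of the merged exons in kilobases. In eLCs the order was Csf1r at 204 CPM per kb, Csf2rb at 140, Csf2ra at 86.6, Csf2rb2 at 34.8, Flt3 at 7.33 and Kit at 1.26. In moLCs the order was the same, with Csf1r at 149 CPM per kb, Csf2rb at 121, Csf2ra at 102.8, Csf2rb2 at 34.9, Flt3 at 11.6 and Kit at 1.49. The first 3 were not ordered alike in all groups: in moLCs of plate 1 Csf2ra (116 CPM per kb) stood above Csf2rb (102.8 CPM per kb). Within cells the order was even looser. Csf1r exceeded Csf2rb per kb in 55 moLCs and 45 eLCs, and Csf1r exceeded Csf2ra per kb in 57 moLCs and 57 eLCs. Single cells thus did not rank Csf1r, Csf2rb and Csf2ra consistently, whereas Csf2rb2, Flt3 and Kit followed in that order in each of the 4 groups. The levels of the first 3 were not close in every group. In eLCs of plate 2 Csf1r stood at 199 CPM per kb, Csf2ra at 70.5 and Csf2rb2 at 35.1.

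Csf1r (ENSMUSG00000024621, chr18:61100598-61132149, forward strand) was read in 99 moLCs (96.1%, exact 95% interval 90.4 to 98.9) and in 77 eLCs (97.5%, 91.2 to 99.7). Single moLCs ranged from 0 to 3775 CPM with a median of 665, and single eLCs from 0 to 5182 CPM with a median of 986. The origins overlapped over nearly the whole range: no moLC exceeded the highest eLC, and 33 moLCs (32.04%) lay above the eLC median. Summed over cells, Csf1r stood at 858 CPM (855 to 862, exact Poisson) in moLCs and at 1179 CPM (1175 to 1184) in eLCs, which is 1.37-fold higher in eLCs. Over all cells the log2 ratio (moLCs over eLCs, as throughout) came to −0.46 (−0.47 to −0.45), with −0.67 on plate 1 and −0.16 on plate 2. These intervals cover counting error only. The libraries hold no molecular identifiers and 82.9% of all values above 0 were even numbers, as when both mates of a pair are counted, so they are too narrow. With each cell left out in turn, the log2 ratio of Csf1r stayed between −0.51 and −0.39. Exons of Hmgxb3 on the opposite strand cover 15.1% of the exon bases of Csf1r, and reads there cannot be assigned without strand.

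The alpha chain gene Csf2ra (ENSMUSG00000059326, chr19:61223957-61228429, reverse strand) was read in 98 moLCs (95.1%, 89.03 to 98.4) and 75 eLCs (94.9%, 87.5 to 98.6). Its values reached from 0 to 1067 CPM in moLCs, around a median of 260, and from 0 to 876 CPM in eLCs, around a median of 183. Here 70 moLCs (67.96%) lay above the eLC median, and 1 moLC exceeded every eLC. The moLCs summed to 295 CPM (293 to 297) and the eLCs to 249 CPM (247 to 251), for a log2 ratio of 0.25 (0.23 to 0.26). Within plates it was smaller, at 0.07 on plate 1 and 0.14 on plate 2. More of the eLCs were on plate 2, where Csf2ra was lower in both origins: the log2 ratio of plate 2 over plate 1 was −0.57 in moLCs and −0.65 in eLCs.

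The common beta chain gene Csf2rb was read in 100 moLCs (97.1%, 91.7 to 99.4) and 78 eLCs (98.7%, 93.1 to 99.97). Cells ranged from 0 to 3520 CPM (median 692) among moLCs and from 0 to 3932 CPM (median 786) among eLCs, and the highest cell was again an eLC. The sums were 877 CPM (874 to 880) and 1022 CPM (1018 to 1026), with a log2 ratio of −0.22 (−0.23 to −0.21). The plates went opposite ways: on plate 1 moLCs had 748 CPM and eLCs 1076 CPM (log2 ratio −0.53), and on plate 2 moLCs had 1120 CPM and eLCs 986 CPM (log2 ratio 0.18). No difference between origins therefore held in direction on both plates.

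The interleukin-3-specific beta chain gene Csf2rb2 was read in 96 moLCs (93.2%, 86.5 to 97.2) and 78 eLCs (98.7%, 93.1 to 99.97). All 7 moLCs without a read were on plate 1, where 60 of 67 moLCs had one. The range was 0 to 710 CPM (median 120) in moLCs and 0 to 1069 CPM (median 138) in eLCs. Its summed level was 165 CPM in both origins, with intervals of 164 to 167 in moLCs and 163 to 167 in eLCs, and the log2 ratio of 0.00 (−0.02 to 0.02) was −0.13 on plate 1 and 0.23 on plate 2. Csf2rb2 held 15.9% of the reads of both beta chain genes in moLCs and 13.9% in eLCs. Over single cells, that share had a median of 15.1% (quartiles 4.96 and 24.1%) in moLCs and 13.8% (quartiles 6.91 and 21.7%) in eLCs. With the reads of both beta chain genes summed, the log2 ratio was −0.19 in all cells, −0.47 on plate 1 and 0.19 on plate 2. This sum does not depend on how shared reads were split, provided that each was counted once.

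Most cells held reads for both chains of the GM-CSF receptor, since Csf2ra and Csf2rb were read together in 95 moLCs (92.2%) and in 75 eLCs (94.9%). All 4 of Csf1r, Csf2ra, Csf2rb and Csf2rb2 were read in 86 moLCs (83.5%) and 72 eLCs (91.1%), with the lowest share, 77.6%, in moLCs of plate 1 and 89.7 to 94.4% in the other groups.

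**Figure D1:**
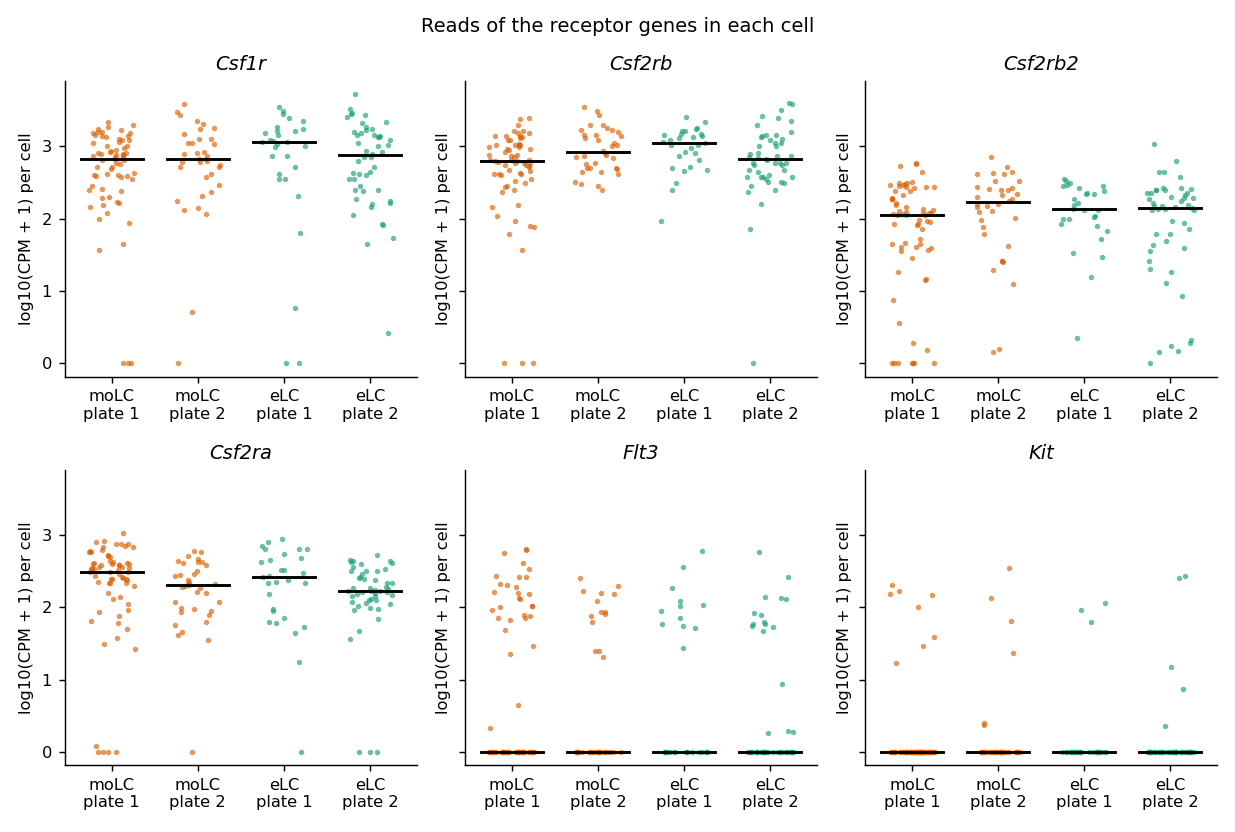
Each point is 1 cell, placed by origin and plate on the x axis and by log10(CPM + 1) of the named gene on the y axis, and black bars are medians. Csf1r, Csf2rb, Csf2rb2 and Csf2ra were read in nearly all cells of the 4 groups, whereas the median cell had no read of Flt3 or Kit.

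Flt3 (ENSMUSG00000042817, chr5:147330741-147400489, reverse strand) was read in fewer cells, 44 moLCs (42.7%, 33.02 to 52.8) and 29 eLCs (36.7%, 26.1 to 48.3). The median cell had 0 CPM in both origins, the highest moLC reached 641 CPM and the highest eLC 602 CPM. Among the cells with a read the median was 112 CPM in moLCs and 69.4 CPM in eLCs. The cells that carried the signal mostly had well over a few reads, since 41.7% of moLCs and 32.9% of eLCs had at least 10. Flt3 summed to 71.6 CPM (70.7 to 72.6) in moLCs and 45.3 CPM (44.4 to 46.2) in eLCs, 1.58-fold higher in moLCs. The log2 ratio was 0.66 when plates were pooled, 0.34 on plate 1 and 0.60 on plate 2. Between plates the gap was larger, since the log2 ratio of plate 2 over plate 1 was −0.87 in moLCs and −1.13 in eLCs. Plate 2, where Flt3 was lower in both origins, held most of the eLCs. Single cells weighed heavily: the top eLC of plate 1 held 25.5% of the Flt3 reads of its group and the top eLC of plate 2 held 29.6%, and leaving out each cell in turn moved the pooled log2 ratio between 0.54 and 0.88.

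Kit (ENSMUSG00000005672, chr5:75574916-75656722, forward strand) was read in 14 moLCs (13.6%, 7.63 to 21.8) and 8 eLCs (10.1%, 4.47 to 18.98). Its highest cell had 344 CPM among moLCs and 268 CPM among eLCs. The sums, 13.3 CPM (12.9 to 13.7) and 11.2 CPM (10.8 to 11.7), rested on few cells. The top eLC of plate 2 held 799 reads, 57.9% of its group, and without that cell the log2 ratio of moLCs over eLCs moved from 0.24 to 0.79. Over all cells left out in turn it ranged from −0.11 to 0.79, so it has no stable direction. Of the 22 cells with a Kit read, 14 also had a Flt3 read (63.6%), compared with 59 of the other 160 cells (36.9%).

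Markers of other cells that express these receptors were looked up beside Flt3 and Kit. Of the 7 mast cell markers, Cpa3, Mcpt4, Tpsb2, Cma1, Fcer1a and Ms4a2 were at 0 in every cell kept, and the list summed to between 0 and 7.03 CPM in the 4 groups, all from Hdc. Of the 6 melanocyte markers, Dct, Mlana, Tyr and Sox10 were at 0, and the sum of 3.92 to 11.5 CPM came from Mitf and Pmel. At least 1 read of a mast cell marker was present in 1 of the 22 cells with Kit reads (4.55%) and in 3 of the 160 cells without (1.88%). For the melanocyte list these were 8 cells with Kit reads (36.4%) and 34 without (21.3%), and for the dermal dendritic cell list 11 (50%) and 70 (43.8%). The part of such cells in the Kit values was not tested. The 6 dermal dendritic cell markers were all read in some cell and summed to between 28.4 and 58.6 CPM. A read of any of them was present in 37 of 73 cells with Flt3 reads (50.7%) and in 44 of 109 cells without (40.4%). The other lists set beside Flt3 went the opposite way. Mast cell markers were present in 0 cells with Flt3 reads and in 4 without (3.67%). For melanocyte markers these were 15 (20.5%) and 27 cells (24.8%), and for keratinocyte markers 8 (10.96%) and 14 (12.8%). The part of other dendritic cells in the Flt3 values was not tested. The keratinocyte gene Krt14, which LCs should lack, had reads in 11 moLCs (10.7%) and 3 eLCs (3.80%), at median depths of 2948819 reads per moLC and 2779080 per eLC. The Krt14 share lay inside the interval of the Kit share in moLCs and just under it in eLCs. These intervals treat cells as independent. Krt14 was the keratinocyte marker found in the most cells. Krt5 (moLCs 2.91%, eLCs 1.27%) and Krt10 (moLCs 2.91%, eLCs 2.53%) lay below the Kit interval of the same origin, and Krt1, Krt15 and Dsp were at 0. Any keratinocyte marker was present in 2 of the 22 cells with Kit reads (9.09%) and in 20 of the 160 without (12.5%). Whether stray RNA gave the Kit reads was not tested.

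Csf3r (ENSMUSG00000028859, chr4:126024550-126044440, forward strand) and Csf1 (ENSMUSG00000014599, chr3:107741048-107760469, reverse strand) had no read in any of the 182 cells. A count of 0 allows a share of cells with a read of up to 3.52% of moLCs and up to 4.56% of eLCs (upper limits of the exact 95% intervals). A floor of 3 reads over the group equals 0.00999 CPM in moLCs and 0.0138 CPM in eLCs. Among the 7 neutrophil markers, S100a8, Elane, Ly6g and Retnlg were at 0 as well, and the list summed to between 0.0670 and 6.09 CPM.

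To ask which of the receptor genes differed between the origins, a rule of size was used in place of a test: a gene passed if 25% or more of either origin's cells had a read of it and its CPM ratio was 2-fold or more, with 1 sign, for all cells together, for plate 1 and for plate 2. Over all genes with that share of cells, 132 of 6522 (2.02%) passed. None of the 8 receptor and ligand genes did, and 5 of them had the share of cells needed. With plates pooled, the largest ratio among those 5 was that of Flt3, 1.58-fold. Its log2 ratio was smaller within plates, at 0.34 on plate 1 and 0.60 on plate 2. Lowering the size to 1.5-fold still passed none, but the share of all genes past 1.5-fold is not given here. With 5 genes that could pass, a count of 0 says little. Between plates, 1.56% of 6408 genes passed the same rule with origin in place of plate, and again none of the 8 did; Flt3 was beyond 2-fold in all cells (log2 ratio −1.07) and in eLCs but not in moLCs. Of the 5 with the share of cells needed, Csf1r, Csf2ra and Flt3 kept the sign of their pooled log2 ratio on both plates, compared with 53.2% of the 6522 genes. The median log2 ratio of the 6522 genes was −0.10, and scaling by trimmed means (TMM), which moved it up by 0.10 to 0.00, gave Csf1r −0.36, Csf2rb −0.12, Csf2ra 0.35 and Flt3 0.76. Of the 6 receptor genes with reads, Csf2rb2 was the one whose sign depended on the scaling, with log2 ratios from −0.07 to 0.10 over 7 alternatives.

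**Figure D2:**
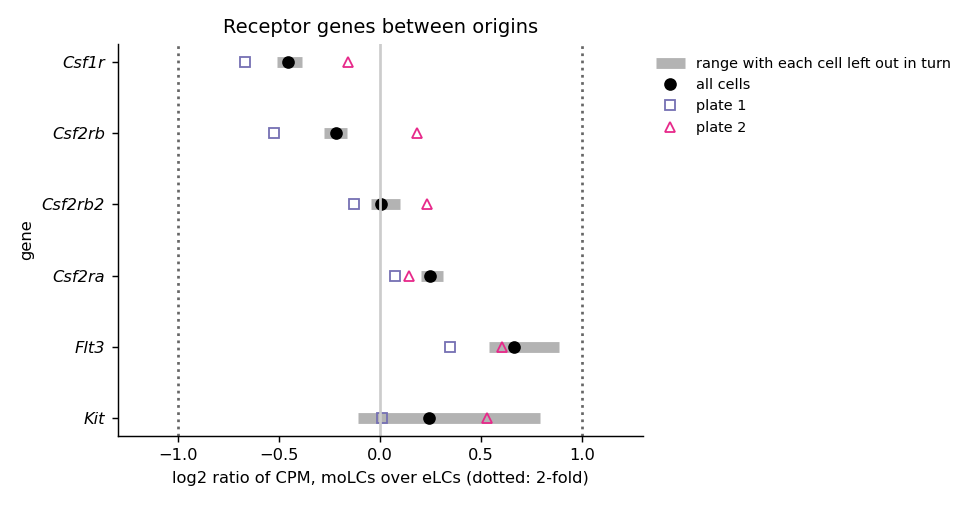
The x axis gives the log2 ratio of CPM in moLCs over eLCs for each receptor gene with reads, for all cells (black), plate 1 (squares) and plate 2 (triangles), and grey bars span the values with each cell left out in turn. No gene reaches the dotted 2-fold lines, Csf2rb and Csf2rb2 change sign between plates, and the bar of Kit is the widest, from −0.11 to 0.79.

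Since the receptors share chains and signals, their levels were also compared across cells. Spearman's rho of CPM was computed for the 10 pairs of the 5 genes with reads in 25% or more of both moLCs and eLCs, separately in the 4 groups of 29 to 67 cells. Genes of 1 cell share its library and its depth, so these values are given as a description. Over all cells rho ranged from −0.09 to 0.36 with a median of 0.08, and 3 of the 10 pairs kept 1 sign in all 4 groups. The share of all gene pairs that did so is not given here, so this count cannot be called low or high. The highest value was that of the paralogs Csf2rb and Csf2rb2, at 0.34 in moLCs of plate 1, 0.45 in moLCs of plate 2, 0.36 in eLCs of plate 1 and 0.27 in eLCs of plate 2. These genes also share the 242-base run above, and whether reads that match both entered either count is not known. The alpha and common beta chains of the GM-CSF receptor had a rho of 0.05 over all cells, from −0.24 in moLCs of plate 2 to 0.17 in eLCs of plate 2. Csf1r had rho values of 0.09 with Csf2ra, 0.16 with Csf2rb, 0.17 with Csf2rb2 and 0.07 with Flt3.

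A pair was counted where rho was at least 0.3 in size and of 1 sign in all 4 groups. No pair of receptor genes met this, and 3429 of 15487395 pairs among all 5566 genes with that share of cells did (0.0221%). Csf2rb with Csf2rb2 fell short in 1 group. Csf2rb met it with 4 of 5565 other genes, and the other 4 receptor genes met it with none. The 4 genes are named because they are few: Pi4k2a, Fgl2 and Phc2 (a Polycomb gene) in the positive direction, and Gadd45b, a stress-induced gene, in the negative direction. Gadd45b had the mean rho of largest size among them, −0.43, with −0.51 to −0.34 over the groups, so cells with more Csf2rb had less Gadd45b in each of the 4 groups.

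**Figure D3:**
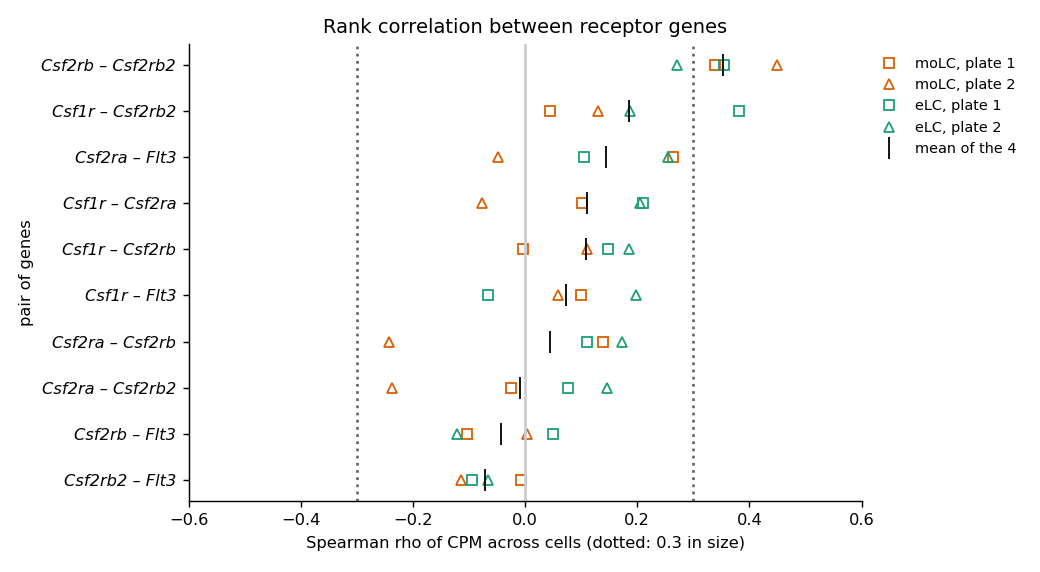
The x axis gives Spearman's rho of CPM across cells for each pair of receptor genes, coloured by origin (orange for moLCs, green for eLCs) with squares for plate 1, triangles for plate 2 and a black tick for the mean of the 4. Csf2rb with Csf2rb2 is the pair with the highest mean, 0.35, and 1 of its 4 values lies inside the dotted lines at 0.3.

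The genes whose pattern over cells was most like that of each receptor gene were those with the highest mean rho over the 4 groups. For Csf1r these were Gsn (gelsolin, an actin-severing protein) at a mean rho of 0.41, Mfge8 (a secreted protein that bridges phagocytes to dying cells) at 0.37 and Gnai2 (a G-protein subunit) at 0.36. Gsn was between 0.24 and 0.52 in the 4 groups. For Csf2rb they were Pi4k2a (a phosphatidylinositol kinase) at 0.42, with 0.31 to 0.57 in the groups, Fgl2 at 0.39, with 0.32 to 0.46, and Cytip at 0.36. For Csf2rb2 they were its paralog Csf2rb at 0.35, Pi4k2a at 0.34 and Cd207, the langerin gene, at 0.33. For Csf2ra the leading genes Cab39l, Mob3a and Tm9sf3 reached 0.32, 0.30 and 0.30, and for Flt3 the genes Mtf2, Tpgs1 and Actb reached 0.30, 0.27 and 0.27. Some of the named pairs were near 0 in 1 group. In eLCs of plate 1, Csf1r with Mfge8 was at 0.06 and Csf2rb2 with Pi4k2a at 0.08. In eLCs of plate 2, Csf2ra with Tm9sf3 was at 0.06 and Flt3 with Actb at 0.05. For scale, 95% of all other genes had a mean rho below 0.20 with Csf1r, below 0.19 with Csf2rb, below 0.17 with Csf2rb2, below 0.15 with Csf2ra and below 0.14 with Flt3. The genes named were picked as the highest, so they had to lie above these limits.

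Across cells, the receptor genes were also set beside genes that mark migration (Ccr7), LC identity (Cd207), resident macrophages (Timd4) and cycling (Mki67). Csf2rb and Csf2rb2 had positive rho values with Cd207 in each of the 4 groups, from 0.17 to 0.46 for Csf2rb and from 0.20 to 0.45 for Csf2rb2. Over all cells they were 0.07 and 0.14. Cd207 itself, of which the origins carry different alleles, was at 26237 CPM for moLCs and 2159 CPM for eLCs. Csf1r with Cd207 was at 0.01 and −0.11 in moLCs of plates 1 and 2, and at 0.28 and 0.33 in the corresponding eLCs. With Ccr7, rho was between −0.22 and 0.08 for Csf1r and between −0.09 and 0.24 for Csf2rb over the groups. With Mki67, Csf2rb was between −0.37 and 0.03. Timd4 gave no receptor gene a value of 1 sign in all 4 groups. Csf1r also followed the total reads of the cell, with rho values from 0.03 to 0.36, and the number of genes read, from 0.02 to 0.55, so depth moves with its level.

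Beyond the receptors, 72 genes were listed by role: ligands, other cytokine receptor chains, kinases with STATs and adaptors, inhibitors, transcription factors, and STAT5 and survival targets. The table listed 71 of them, and 47 reached the 25% share of cells in either origin. Of these 47, 2 passed the size rule, both higher in moLCs (4.26%), beside 0.813% of the 6522 genes higher and 1.21% lower in moLCs. These were Socs3 and Gab2. The lists were chosen with earlier results of these data known, so the shares cannot be read as an enrichment.

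Of the 8 ligand genes listed by role, Flt3l had no row of that name in the table and was not analysed here, and the other 7 had almost no reads. Csf2, Csf3, Il3, Il5, Kitl and Tslp had no read in the 182 cells, and Il34 was read in 1 moLC. Among the other cytokine receptor chains, none of 11 passed, and their median log2 ratio was −0.26, beside −0.10 over the 6522 genes. The chain that pairs with the beta chain genes in the interleukin-3 receptor, Il3ra, had the largest ratio: 35 moLCs (33.98%) and 45 eLCs (56.96%) had a read of it. The highest moLC had 190 CPM and the highest eLC 151 CPM, so the ranges overlapped. Its sums were 11.03 CPM for moLCs and 24.2 CPM for eLCs (log2 ratio −1.13), with 9.32 and 23.99 CPM on plate 1 and 14.2 and 24.4 CPM on plate 2, where the log2 ratio of −0.77 was short of 2-fold. Il5ra had no read. Il2rg, the common gamma chain gene, had a log2 ratio of 0.40, and Il10ra, a chain of the interleukin-10 receptor, one of −0.42, each in the same direction on both plates.

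Among 18 kinase, STAT and adaptor genes, Gab2 passed the rule, and the median log2 ratio was 0.06. Gab2 encodes a docking protein downstream of cytokine receptors. Reads were found in 34 moLCs (33.01%) and 14 eLCs (17.7%). The highest moLC had 722 CPM and the highest eLC 157 CPM, and the median was 0 in both origins. The sums of Gab2 were 27.1 CPM for moLCs and 11.6 CPM for eLCs, so that its log2 ratio was 1.22, with 1.02 on plate 1 and 1.15 on plate 2. Its margin was small: the call was lost in 39 of 182 cases when 1 cell was left out, and without the moLC of plate 2 that held 1088 of its reads the ratio on that plate was 0.19. Jak2, the kinase bound to the beta chain, was at 232 and 164 CPM (log2 ratio 0.49, with 0.30 and 0.79).

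Among 7 inhibitor genes the median log2 ratio was 0.30, with 0.92 on plate 1 and −0.12 on plate 2, and Socs3, a feedback inhibitor of JAK kinases that cytokines induce, passed the rule. Reads of Socs3 were found in 62 moLCs (60.2%) and 28 eLCs (35.4%). By plate, 49.3% of moLCs and 20.7% of eLCs had a read on plate 1, and 80.6% of moLCs and 44% of eLCs on plate 2. The median cell had 22.5 CPM among moLCs and 0 CPM among eLCs, but the highest cell of all was an eLC, at 1223 CPM, against 1102 CPM for the highest moLC. The sums of Socs3 were 107 CPM for moLCs and 48.3 CPM for eLCs, which gives a log2 ratio of 1.14 (1.11 to 1.17), with 2.04 on plate 1 and 1.09 on plate 2. The call was lost in 4 of 182 cases, each the removal of a moLC of plate 2, with ratios of 0.94 to 0.99 on that plate. Ptpn6, the gene of the phosphatase SHP-1, had a log2 ratio of 0.65, with 0.94 on plate 1 and 0.02 on plate 2. Spred1 had one of −0.10.

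None of 4 transcription factor genes passed, and their median log2 ratio was 0.11. Spi1, which encodes PU.1, a factor that myeloid receptor genes such as Csf1r depend on, had 710 CPM among moLCs and 654 CPM among eLCs (log2 ratio 0.12), and Runx1 at 32.04 and 40.8 CPM (−0.35). Gata2 had no read. None of 7 STAT5 and survival targets passed either, with a median log2 ratio of −0.08. Ccnd1, the cyclin D1 gene, had 18.3 CPM among moLCs and 37.7 CPM among eLCs (log2 ratio −1.04), but at −1.54 on plate 1 and −0.37 on plate 2. Bcl2l1, a gene against apoptosis, was at 38.3 and 24.3 CPM (0.65, with 0.97 and 0.17 on the plates), although fewer moLCs (45.6%) than eLCs (60.8%) had a read of it. Pim1, a survival kinase gene, was at 29.5 and 22.8 CPM (0.38, with 0.94 and 0.06).

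**Figure D4:**
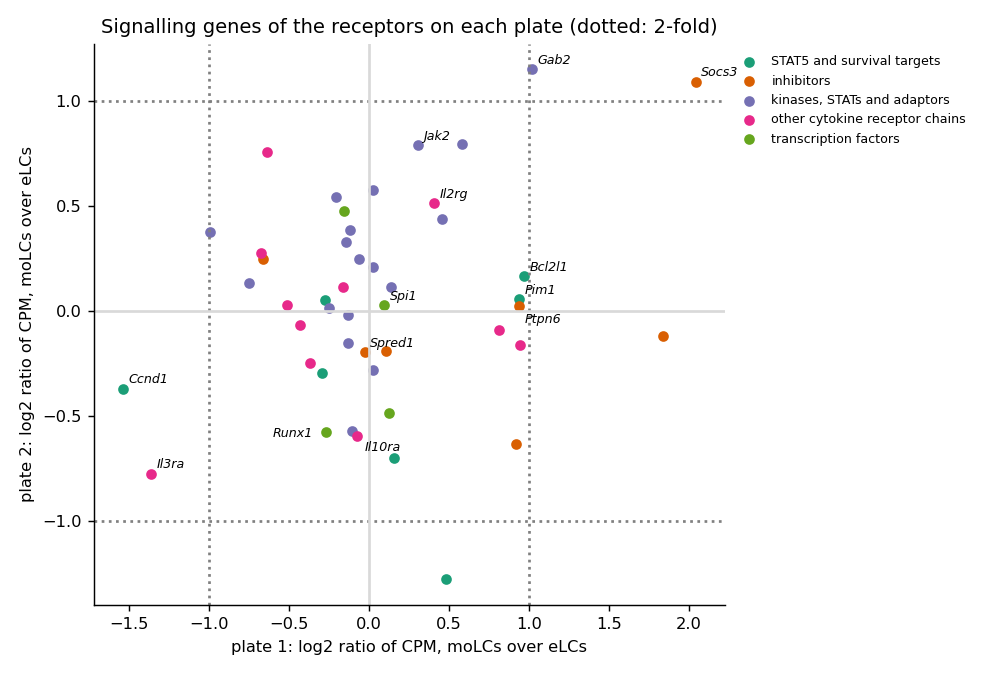
Each point is 1 of the 47 listed signalling genes that reached the 25% share of cells, with the log2 ratio of CPM in moLCs over eLCs on plate 1 (x axis) and on plate 2 (y axis), coloured by list, and the genes named in the text are labelled. Only Socs3 and Gab2 lie beyond the dotted 2-fold lines on both plates, while Il3ra, Ccnd1 and the unlabelled Cish (1.84) lie beyond 2-fold on plate 1 and not on plate 2, and the unlabelled Myc (−1.28) on plate 2 and not on plate 1.

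Of the other marker lists, the 6 keratinocyte markers (Krt1, Krt15 and Dsp at 0) reached 20.1 CPM for moLCs and 4.35 CPM for eLCs together, and between 3.47 and 22.9 CPM in the 4 groups. The 6 monocyte markers (Fcgr1 among those at 0) summed to 76.1 and 33.9 CPM, nearly all from Lyz2, and to between 21.2 and 78.4 CPM in the groups. The 6 T cell markers (Cd3e, Trdc, Cd8a and Thy1 at 0) summed to between 0 and 0.40 CPM, and the 4 precursor genes (Cd34 at 0) to between 107 and 134 CPM. Nearly all of the precursor sum came from the cycling gene Mki67 and from Top2a, whereas Ly6a was at 1.57 CPM in moLCs and 2.97 CPM in eLCs. The keratinocyte and monocyte sums were thus higher in moLCs, the direction of Socs3 and Gab2. Their part in those ratios was not tested.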

How the data were processed

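Single epidermal LCs were index-sorted into plates, amplified with a Smart-Seq kit and sequenced with paired 75-base reads. Per the labels and the study's methods, the authors aligned reads with STAR to mm10; the counting tool and annotation are not given in the sources used here. The deposited table holds read counts per gene and cell, not normalised. Values of 8 cells are estimated counts, since 9 of them lie midway between whole numbers in the deposited table; these were rounded. Origin came from the labels, and plate from the cell names. Total counts per cell set the precision.

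Cells with over 5% mitochondrial reads were removed. CPM is a gene's summed reads per 1000000 summed reads of the group. Intervals are 95% exact Poisson (sums), Clopper-Pearson (shares) or conditional binomial (ratios) limits. An origin at 0 was set to 3 reads. With 1 sample per origin, no test was made. The size and correlation rules are given with their results. Named signalling genes were those past the size rule plus, per list, the 3 with the largest ratio and the same direction on both plates; some of these are not reported here. Genes, lists and rules were chosen with earlier results of these data known. Gene positions and lengths came from GENCODE M21. The rules were tried on simulated data with planted differences larger than 2-fold and a planted pair of proportional genes. Smaller differences and weaker correlations were not planted. Tools were Python 3 with scipy, Biopython for the alignment, and edgeR for TMM factors in an alternative. Alternatives covered cells, totals, thinning to 2052512 reads (19 shallower cells left out), weights, thresholds and correlation measures.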

Additional observations from a re-analysis of the deposited data

Results flagged for a closer look

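The 3 moLCs left out by the mitochondrial filter entered none of the main comparisons, but they held reads of some receptor genes. Summed over the 3 cells, Csf2rb was at 725 CPM, with reads in 3 of 3. Csf2rb2 was at 25.5 CPM, also in 3 of 3, and Csf2ra at 4.63 CPM, in 1 of 3. Csf1r, Flt3 and Kit had no read in them. These cells had 233438 to 920430 total reads, 1184 to 2548 genes read and 9.97 to 29.3% mitochondrial reads.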

How the results depend on the processing

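The count of receptor genes past the size rule between origins, 0, stayed at 0 in all alternatives run: no mitochondrial limit, at least 1000 genes read, equal weight per cell, TMM factors, totals without the 50 most-read genes or without Cd207 (chosen after seeing the data), thinning, a 50% share, no share, 1.5-fold, each plate alone and each cell left out. Of these, the limit of 1000 genes read changed no ratio of a receptor gene, and the 50% share is stricter than the main rule. Neither could therefore raise the count. Between plates the count stayed at 0 with equal weights and with no share asked for. For listed genes, the count of 2 was 1 with a 50% share (Socs3), 1 when thinned (Socs3) and 0 to 3 with each cell left out, Il3ra being the further gene; it was 2 under the other alternatives. Thinning and leaving out cells were added for this count after seeing the data. For receptor pairs, the count of 0 became 1 with Pearson's correlation of ln(counts per 10000 + 1) and 1 with a threshold of 0.2, each time Csf2rb with Csf2rb2, and stayed at 0 with partial rank correlation and with thinning. Of 68 alternative log2 ratios of receptor genes, 52 lay outside the counting interval of the value reported, as did 2 of 24 shares of cells and 10 of 12 levels per kb under the longest-transcript length. For the genes at 0, the upper limits given for the share of cells rest on the number of cells and not on depth. With 1 sample per origin no spread between animals could be measured.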
